A study of Mus musculus with 8 samples.

Results

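The clustered histone genes are the multicopy genes for the linker histone H1 and the core histones H2A, H2B, H3 and H4 that sit together at a few places in the mouse genome. They were taken as the rows of the deposited gene table whose symbol begins with Hist1h, Hist2h, Hist3h or Hist4h. Of 24060 rows, 68 carry such a symbol, and the 49 with at least 10 counts in at least 4 of the 8 libraries are the members described here: 5 H1, 9 H2A, 16 H2B, 7 H3 and 12 H4 genes. All 49 passed the filter on low counts and were tested, and 1 of them, Hist1h3h, passed the count rule through the control libraries alone. Hist1h2bl and Hist1h2bk passed it mostly through control libraries. Hist1h2bl had 7 to 11 counts in bigenic and 15 to 20 counts in control libraries, and Hist1h2bk had 0 to 10 and 5 to 19 counts.

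RNA was sequenced from whole cerebellum of 8 mice, with reads counted per gene. The 4 bigenic mice carried CalExflox, an allele that yields a plasma membrane calcium pump once Cre has recombined it, and Aldh1l1-Cre/ERT2, a Cre recombinase that tamoxifen activates and the astrocyte promoter of Aldh1l1 drives. The 4 control mice carried CalExflox and no Cre. Mice of both groups were given tamoxifen once at 75 mg/kg, and tissue was taken 5 days later. Each library is a separate mouse by its label, and sex and age are not given. Counted reads per library were 35208460 to 38150087 in the bigenic and 35619445 to 38293012 in the control group, and the members took 0.0774% to 0.119% of them in bigenic and 0.0994% to 0.154% in control libraries. Levels are CPM, counts scaled to TMM-normalised library sizes, unless FPKM is named, which also divides by gene length. Cre and the pump are found together in bigenic mice only, so their effects cannot be told apart. The tissue is the whole cerebellum, although Cre acts in astrocytes, and in such bulk tissue fewer cells of a type and less RNA per cell cannot be told apart.

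The control libraries were not uniform in tissue content. Of 8 choroid plexus markers tested 7 were lower in bigenic tissue, and the 9 listed summed to 48.8 to 55.6 CPM in bigenic libraries, against 46.6 to 3179 CPM in control libraries. Ttr, the most abundant of them, ranged between 2.25 and 4.62 CPM over bigenic libraries, whereas control libraries 1 to 4 held 300.2, 2360, 2961 and 2.76 CPM. Control libraries 2 and 3 were the highest and control library 1 lay between them and the rest, with a summed level of 360 CPM; leaving out libraries 2 and 3, as is done for some values given later, keeps library 1 among the controls. Cerebellar neuron markers differed less, at 8301 to 9149 CPM summed in bigenic and 8322 to 9371 CPM in control libraries, with 3 of 8 lower and 0 higher. Microglia markers summed to 46.3 to 65.1 CPM in bigenic libraries, against 69.9 to 83.4 CPM in control libraries, with 2 of 4 lower, and markers of other leukocytes to 2.34 to 3.37 CPM in bigenic libraries, against 4.32 to 5.43 CPM in control libraries, with 2 of 2 tested lower. Endothelial markers summed to 101 to 114 CPM in bigenic libraries, against 123 to 139 CPM in control libraries, with 1 of 4 lower, Tek. Of 4 markers of oligodendrocyte precursors Pdgfra was higher and Gpr17 lower (log2 fold change 0.40 and -1.91), and the sums overlapped, at 97.5 to 118 CPM in bigenic and 102 to 116 CPM in control libraries. Of 6 markers of astrocytes and Bergmann glia, the cells in which Cre acts, Gdf10 and Aldh1l1 were higher and Aqp4 lower, with sums of 4156 to 5044 CPM in bigenic and 4057 to 4565 CPM in control libraries. Of 5 oligodendrocyte markers 2 were higher, with sums of 3845 to 5350 CPM in bigenic and 3546 to 4324 CPM in control libraries. Markers of striatal neurons, a cell type of another brain region, summed to 142 to 160.3 CPM in bigenic and 89.6 to 106 CPM in control libraries, almost all of it Ppp1r1b, with 1 of 4 higher and 1 lower. Of 3 markers of granule cell precursors tested 1 was lower, Mycn, with sums of 10.9 to 14.0 CPM in bigenic and 11.5 to 16.3 CPM in control libraries. The 4 globin genes of the erythroid list are at 0 in every library, and its 1 gene tested, Alas2, was lower, at 0.257 to 4.01 CPM in bigenic libraries, against 6.28 to 7.59 CPM in control libraries. The part of these cell types in the values of the members was not tested.

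Most clustered histone genes are replication-dependent: they are transcribed mainly while a cell copies its DNA, and their messenger RNAs end in a conserved stem-loop instead of a poly(A) tail. The stem-loop is bound by the stem-loop-binding protein Slbp, and a cut just after it, guided by the U7 small nuclear ribonucleoprotein, makes the 3′ end. Most cells of the adult brain no longer divide, and neurons take new histones largely from replacement variants whose genes lie elsewhere and give polyadenylated mRNAs.

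The stem-loop is shown because it is the feature by which these RNAs are recognised and because H4 genes carry their own form of it. A search of the sense strand of GENCODE M21 transcripts (GRCm38) for the histone 3′ end stem-loop matched 32 of the 49 members, or 65.31%, and 10 of 21884 other protein-coding genes, or 0.0457%. The searches differed: each member was searched only in its transcript nearest in length to the deposited gene length, and the other genes in all their transcripts. The members also include a processed pseudogene, Hist3h2bb-ps. The 6-base arms are in capitals and the 4-base loop is in lower case, written as DNA from 5′ to 3′.
Hist1h1c, Hist1h1d and Hist3h2ba: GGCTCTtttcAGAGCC
Hist1h2bb: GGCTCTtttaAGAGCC
Hist2h2ac: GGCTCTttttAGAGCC
Hist1h4d and Hist1h4h: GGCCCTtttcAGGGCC
Hist2h4: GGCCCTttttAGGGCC
Hist1h4b: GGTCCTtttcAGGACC
The first arm read GGCTCT in all 22 matched H1, H2A, H2B and H3 members and in none of the 10 matched H4 members. Among H4 genes it read GGCCCT in 8 and GGTCCT in 2. The 17 members without a match include genes whose annotated transcript stops at the end of the coding sequence, so no match says only that these letters are not in that transcript.

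Bigenic cerebellum had less RNA from many clustered histone genes. The linker histone gene Hist1h1c went the other way, as did Hist3h2ba and the pseudogene Hist3h2bb-ps, which are alike in part of their sequence. Of the 49 members, 19 were lower and 3 higher in bigenic than in control libraries at an adjusted p under 0.05, and 27 were not called (edgeR's quasi-likelihood test, Benjamini-Hochberg over 15186 genes). The difference between the groups was broad: of all genes tested, 44.3% were called, 22.9% lower and 21.4% higher. The members' share was 38.8% lower and 6.12% higher. Hist1h3h is among the 19, but a gene that met the count rule through the control libraries alone had to differ. Without it 18 of 48 members, or 37.5%, were lower. Hist1h2bl, which met the rule mostly through control libraries, is still among these 18. The members' log2 fold changes, bigenic over control, ran between -1.82 and 0.67 with a median of -0.50, against a median of -0.00414 over all genes tested. The sign was negative for 41 members and positive for 8, where 50.33% of all genes were negative. All bigenic values lay under all control values for 10 members, Hist1h3h and Hist1h2bl among them, and above them for 1. Of all genes tested these shares were 21.4% and 19.4%, so for lower values the share with no overlap was close to that of all genes. Of the 3 members called higher, Hist1h1c and Hist3h2bb-ps kept the call whichever of the 8 libraries was left out. Of the 19 called lower, 11 kept it, again with Hist1h3h among them. The 8 that lost it without at least 1 library were Hist1h2ai, Hist1h2ak, Hist1h2bl, Hist1h3a, Hist1h4d, Hist1h4f, Hist1h4h and Hist2h2ac, and without bigenic library 2 the number called lower was 12.

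The members' count moved little with the scaling. With library size alone 23 members were lower and 2 higher, against 28.8% and 16.0% of all genes. Without a filter on low counts 16 were lower and 2 higher, against 15.8% and 13.6%, and with the replicate number as a block 26 were lower and 3 higher, against 25.0% and 24.0%. With the pair of control libraries highest in Ttr, 2 and 3, left out, 17 members were lower, 16 of them among the 19, and 1, Hist3h2bb-ps, was higher, with a median of -0.71; of all genes 11.4% were then lower and 10.4% higher. With log2 CPM of Ttr as a covariate 5 members were lower, Hist1h1d, Hist1h2bb, Hist1h2bn, Hist1h3i and Hist2h2be, and 1 higher, with a median of -0.63, and of all genes 11.0% were lower and 8.36% higher. Under that covariate no H4 member was called, and their median was -0.82.

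**Figure D1:**
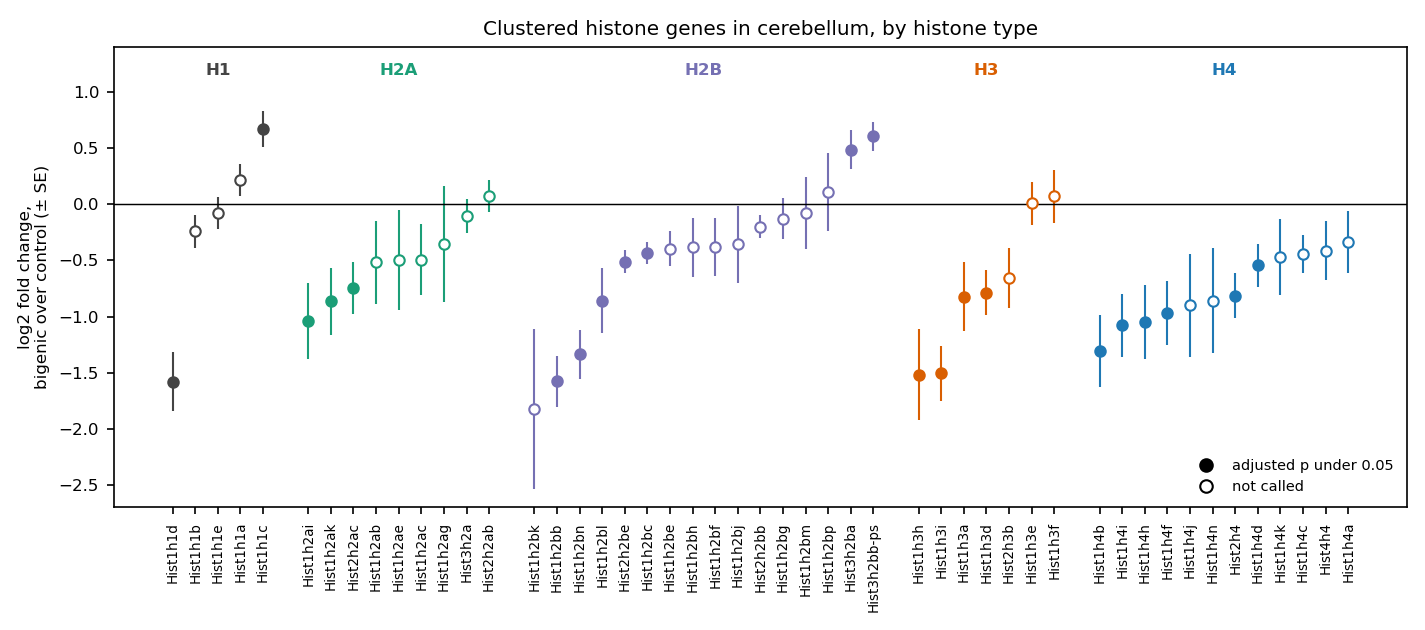
Log2 fold change of each of the 49 members, bigenic over control, with the standard error of the fit as a bar; members are grouped by histone type and ordered by value within a type, and filled points have an adjusted p under 0.05. All 12 H4 members lie below 0, between -1.31 and -0.33, whereas H1 members spread between -1.58 and 0.67.

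The plot of members by type shows that the types are not alike in their spread. H4 members were all negative, with a median log2 fold change of -0.84, and 6 of 12 were called lower, where 22.9% of all genes tested were. H3 members had a median of -0.79, with 4 of 7 called lower, or 3 of 6 without Hist1h3h. H2A members had a median of -0.50, with 3 of 9 called lower and 0 higher. H2B members had a median of -0.38, with 5 of 16 called lower, Hist1h2bl among them, and 2 higher. H1 members had a median of -0.08, with 1 of 5 called lower and 1 higher. The counts of calls per type turned on single libraries. The H4 count was 10 without bigenic library 1, 3 without bigenic library 2, and 4 to 7 without any 1 of the other 6 libraries; it was 3 without a filter on low counts, 11 with the replicate block and 0 with Ttr as a covariate. The H2A count was 0 without bigenic library 3 or control library 1, 1 without bigenic library 2 or 4 or control library 2, 2 without control library 4, and 0 with Ttr. The H2A median was -0.29 without control library 1, -0.86 without control libraries 2 and 3, and -0.92 with Ttr. Leaving out 1 library gave 5 to 8 H2B calls, 3 to 5 H3 calls and 2 H1 calls, in both directions together, and without control libraries 2 and 3 there were 4 H2B calls and 1 H1 call. The H1 median lay between -0.19 and 0.10 as 1 library was left out. Differences between types were not tested.

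Linker histones bind the DNA where it enters and leaves the nucleosome. Hist1h1d, a linker histone gene, had 15.0, 17.1, 7.78 and 17.1 CPM in bigenic libraries 1 to 4, against 60.8, 40.9, 30.0 and 38.9 CPM in control libraries 1 to 4. Every bigenic value lay under every control value. Hist1h1d averaged 14.2 ± 4.43 CPM in bigenic mice, against 42.7 ± 13.0 CPM in control mice (SD, n = 4 each), and was thus 2.99-fold lower (log2 fold change -1.58 ± 0.26, SE; adjusted p = 0.000886). Hist1h1c, a linker histone gene of the same cluster, had 89.3, 63.9, 76.9 and 82.4 CPM in bigenic libraries and 66.8, 46.2, 37.7 and 45.2 CPM in control libraries. Here the bigenic values were the higher ones, apart from control library 1, which lay above bigenic library 2. The log2 fold change was 0.67 ± 0.16 (SE; adjusted p = 0.00585), or 1.60-fold higher; without control libraries 2 and 3 it was 0.48 and no longer called (adjusted p = 0.0794).

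Hist1h1e was the linker histone gene with the highest level per length, at 162 ± 6.22 deposited FPKM in bigenic and 182 ± 46.0 FPKM in control libraries. It was not called, with 127, 125, 136 and 135 CPM in bigenic libraries and 187, 136, 108 and 122 CPM in control libraries (log2 fold change -0.08 ± 0.14, SE; adjusted p = 0.665). Control library 1 stood above every other library, and without it the log2 fold change was 0.10. On the same FPKM scale Hist1h1d was at 17.9 ± 5.70 in bigenic and 56.7 ± 17.4 in control libraries, and Hist1h1c at 105 ± 15.3 in bigenic and 69.6 ± 17.9 FPKM in control libraries. Summed over the 5 H1 members, the groups differed by less than their spread, with 254 ± 17.5 CPM in bigenic libraries, against 260 ± 63.4 CPM in control libraries (SD, n = 4 each).

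Hist1h1c and Hist1h1d lie on chromosome 13 (GRCm38), on the plus strand, at 23738808 to 23740367 and at 23553262 to 23560686 in GENCODE M21. Their promoters are shown because the genes changed in opposite directions. Each stretch is the 150 bases before the start that RefSeq gives on GRCm38.p6; for Hist1h1d this lies inside the longer GENCODE transcript. Capitals mark CCAAT and TATAAA on either strand.
Hist1h1c, chr13:23738657-23738806, plus strand: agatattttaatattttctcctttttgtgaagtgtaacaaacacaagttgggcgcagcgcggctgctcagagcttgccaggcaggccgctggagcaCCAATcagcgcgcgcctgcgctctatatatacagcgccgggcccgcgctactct
Hist1h1d, chr13:23554882-23555031, plus strand: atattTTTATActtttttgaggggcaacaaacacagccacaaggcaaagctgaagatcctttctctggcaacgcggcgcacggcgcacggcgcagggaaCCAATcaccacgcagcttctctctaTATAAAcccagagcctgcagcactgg
Both windows hold a CCAAT, as did all 5 H1 members, and between these windows the letters TATAAA are in that of Hist1h1d only. Over all 5 H1 members TATAAA was found in 4, and those other than Hist1h1d, with Hist1h1e among them, were not called.

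H4 and H3 form the tetramer at the core of the nucleosome. Among H4 genes the highest level per length was that of Hist1h4d, at 263 ± 79.1 FPKM in bigenic and 406 ± 77.1 FPKM in control libraries. Hist1h4d had 133, 76.2, 74.8 and 114 CPM in bigenic libraries against 173, 146, 109 and 152 CPM in control libraries. The groups overlapped, since bigenic libraries 1 and 4 lay above control library 3. The log2 fold change was -0.54 ± 0.19 (SE; adjusted p = 0.0405). Hist1h4c, the second by FPKM, was at 197 ± 51.9 in bigenic and 284 ± 50.6 FPKM in control libraries and just missed the threshold (log2 fold change -0.45 ± 0.17, SE; adjusted p = 0.0514).

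Hist2h4 was the 1 H4 gene whose groups did not overlap. It had 66.7, 39.6, 33.9 and 61.2 CPM in bigenic libraries and 102, 92.7, 71.0 and 88.1 CPM in control libraries. The log2 fold change was -0.81 ± 0.20 (SE; adjusted p = 0.00772), or 1.76-fold lower. No stretch of 75 bases of its coding sequence, the length of 1 read, occurs in another annotated gene. Hist1h4h had 60.8, 25.5, 20.8 and 38.2 CPM in bigenic libraries and 99.6, 79.7, 53.5 and 67.4 CPM in control libraries (log2 fold change -1.05 ± 0.33, SE; adjusted p = 0.0303). Bigenic library 1 lay within the range of the control libraries and the other 3 lay below it. Hist1h4b fell by 1.31, Hist1h4i by 1.08 and Hist1h4f by 0.97 on the log2 scale (adjusted p = 0.00716, 0.00955 and 0.0187). The 5 H4 genes neither called nor described above, named after their values were seen, were Hist1h4a, Hist1h4j, Hist1h4k, Hist1h4n and Hist4h4, with log2 fold changes between -0.90 and -0.33.

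Hist1h4h lies on chromosome 13 at 23531050 to 23531519, plus strand, and Hist2h4 on chromosome 3 at 96261682 to 96263311, minus strand. The promoter of Hist1h4h is shown for the contrast with the other types, since CCAAT was found in 3 of the 11 H4 promoters matched to RefSeq and in all 32 promoters of the other types.
Hist1h4h, chr13:23530894-23531043, plus strand: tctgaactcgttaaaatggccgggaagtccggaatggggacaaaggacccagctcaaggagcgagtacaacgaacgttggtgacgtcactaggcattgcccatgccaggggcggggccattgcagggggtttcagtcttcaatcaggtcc
None of the 3 motifs searched (CCAAT, the TATA letters and the octamer) is in this window, so it has no capitals. Of the 49 members, 43 were matched to a RefSeq promoter. In the 150 bases before the start, read on both strands, CCAAT was found in 35 of the 43 members and 24.5% of 32851 promoters, TATAAA in 19 members and 7.57% of promoters, and the octamer ATTTGCAT in 10 members and 0.998% of promoters. The octamer was found in 4 of 9 H2A and 6 of 13 H2B promoters and in 0 of the H1, H3 and H4 promoters. Windows of divergent pairs overlap each other in part, so their motifs are not independent.

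Among H3 genes Hist1h3i had 3.05, 1.70, 1.89 and 2.48 CPM in bigenic libraries and 7.41, 6.26, 3.96 and 8.24 CPM in control libraries. The groups did not overlap, and the log2 fold change was -1.50 ± 0.25 (SE; adjusted p = 0.000614), or 2.84-fold lower. Hist1h3d fell by 0.79 and its groups did not overlap (adjusted p = 0.00781), and Hist1h3a fell by 0.83 (adjusted p = 0.0463). Hist1h3h was low throughout, at 3 to 9 counts in bigenic and 12 to 27 counts in control libraries, with a log2 fold change of -1.52, given as a description only since the count rule was met in control libraries alone. The H3 genes with the highest FPKM were not called: Hist1h3e was at 35.8 ± 9.17 FPKM in bigenic and 37.7 ± 8.68 FPKM in control libraries (log2 fold change 0.01 ± 0.19, SE; adjusted p = 0.972). For Hist2h3b the value was -0.66 ± 0.27 (SE; adjusted p = 0.0641). H3 thus held 2 members with a positive value, Hist1h3e and, named after its value was seen, Hist1h3f, and 5 with a negative one.

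H2A and H2B form the dimers on either side of the tetramer. Hist1h2bb had 3.65, 1.84, 2.30 and 3.64 CPM in bigenic libraries and 10.05, 7.72, 6.71 and 9.66 CPM in control libraries. Every bigenic value lay under every control value, and the log2 fold change was -1.58 ± 0.23 (SE; adjusted p = 0.000283), or 2.98-fold lower. Hist1h2bn had 1.28, 1.08, 0.928 and 0.862 CPM in bigenic libraries, against 2.95, 2.72, 1.86 and 2.99 CPM in control libraries, again with no overlap (log2 fold change -1.34 ± 0.22, SE; adjusted p = 0.00062). Hist2h2be, an H2B variant gene known from mouse olfactory neurons, had 12.6, 12.9, 15.8 and 11.96 CPM in bigenic libraries and 19.1, 18.5, 19.3 and 19.1 CPM in control libraries. Its control libraries differed by less than 1 CPM, all bigenic libraries lay below them, and the log2 fold change was -0.51 ± 0.10 (SE; adjusted p = 0.00211). Hist1h2bc fell by 0.43 and Hist1h2bl by 0.86, both with no overlap (adjusted p = 0.00512 and 0.0299). Hist1h2bl met the count rule mostly through control libraries, at 7 to 11 counts in bigenic and 15 to 20 counts in control libraries. Its lower level and lack of overlap are thus a description only. Hist1h2bk, named after its values were seen, had the lowest log2 fold change of all members, -1.82 ± 0.71 (SE), and was not called (adjusted p = 0.0564). Its level was 0 to 0.285 CPM in bigenic libraries, against 0.139 to 0.51 CPM in control libraries.

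Of the H2A genes, Hist2h2ac had 14.6, 6.79, 7.90 and 12.1 CPM in bigenic libraries and 21.3, 18.9, 13.0 and 16.4 CPM in control libraries. Bigenic library 1 lay above control library 3, so the groups overlapped, and the log2 fold change was -0.75 ± 0.23 (SE; adjusted p = 0.0213). Hist1h2ai fell by 1.04 and Hist1h2ak by 0.87 (adjusted p = 0.0264 and 0.0347). The H2A genes with the highest FPKM were not called: the log2 fold change was -0.11 ± 0.15 for Hist3h2a and 0.07 ± 0.14 for Hist2h2ab (SE; adjusted p = 0.596 and 0.702). Hist2h2bb, the H2B gene with the highest FPKM, had 94.3, 73.8, 76.8 and 103 CPM in bigenic libraries and 104, 96.2, 101 and 98.3 CPM in control libraries and was not called (log2 fold change -0.20 ± 0.10, SE; adjusted p = 0.134).

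The promoter of Hist1h2bb is shown because it holds all 3 motifs searched, in capitals on either strand. The gene lies on chromosome 13 at 23746734 to 23747241, plus strand.
Hist1h2bb, chr13:23746584-23746733, plus strand: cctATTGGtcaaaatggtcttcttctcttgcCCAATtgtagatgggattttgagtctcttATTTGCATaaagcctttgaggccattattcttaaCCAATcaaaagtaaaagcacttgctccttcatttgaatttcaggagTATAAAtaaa

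In the Hist3 cluster the H2B gene Hist3h2ba and the H2B pseudogene Hist3h2bb-ps were higher in bigenic tissue. Hist3h2ba had 94.5, 54.3, 62.9 and 88.3 CPM in bigenic libraries and 65.9, 54.5, 46.0 and 48.1 CPM in control libraries. The groups overlapped, since bigenic libraries 2 and 3 lay below control library 1 (log2 fold change 0.48 ± 0.17, SE; adjusted p = 0.0405). The call for Hist3h2ba was lost under 13 of 22 alternatives. Among them were library size alone as the scaling, upper-quartile factors, no filter on low counts and log2(FPKM + 1). It was also lost without any 1 of bigenic libraries 1 and 4 and control libraries 2, 3 and 4. Without control libraries 2 and 3 together its adjusted p was 0.230, and with Ttr as a covariate 0.182. Hist3h2bb-ps, annotated as a processed pseudogene, had 23.3, 15.5, 19.5 and 23.0 CPM in bigenic libraries and 14.8, 13.6, 12.9 and 12.2 CPM in control libraries. Its groups did not overlap and the log2 fold change was 0.60 ± 0.13 (SE; adjusted p = 0.00353). Of the stretches of 75 bases in Hist3h2ba 24.7% occur in Hist3h2bb-ps, and 19.2% of those in Hist3h2bb-ps occur in Hist3h2ba. Neither shares a stretch with any other annotated gene. Reads may thus have been split between them, which was not tested, and they are not 2 separate cases. The promoter of Hist3h2ba (gene on chromosome 11 at 58948920 to 58949533, plus strand) is given with the same motifs in capitals.
Hist3h2ba, chr11:58948761-58948910, plus strand: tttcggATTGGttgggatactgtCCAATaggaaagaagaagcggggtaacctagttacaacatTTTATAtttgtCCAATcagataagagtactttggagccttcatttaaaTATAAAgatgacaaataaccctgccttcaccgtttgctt

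By position, the Hist1 cluster on chromosome 13, between 21715763 and 23764406, holds 39 members. Of these 16 were lower, Hist1h3h among them, and 1 higher, and their median log2 fold change was -0.50. Over all genes tested 22.9% were lower and 21.4% higher. The Hist2 cluster on chromosome 3, between 96219865 and 96270132, holds 6 members with 3 lower, 0 higher and a median of -0.59. The Hist3 cluster on chromosome 11, between 58948920 and 58956830, holds 3 members with 2 higher, 0 lower and a median of 0.48. Hist4h4 stands alone on chromosome 6 at 136801553 to 136804415 with a log2 fold change of -0.41.

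Clustered histone genes often lie head to head with a short shared promoter. In 8 pairs of members the starts are divergent and less than 1 kb apart. In 3 pairs both genes were lower: Hist1h2ak and Hist1h2bn, 296 bases apart, Hist1h2bl and Hist1h2ai, 279 bases apart, and Hist2h2ac and Hist2h2be, 239 bases apart. No pair had calls in opposite directions, and 6 of 8 pairs shared a sign. Of all 49 members 41 were negative, 19 were called lower and 3 called higher. Most pairs of members would thus share a sign wherever they lie, and these counts say nothing about shared promoters. Hist3h2bb-ps and Hist3h2a, 173 bases apart, did not share a sign: Hist3h2bb-ps was higher and Hist3h2a was not called, with log2 fold changes of 0.60 and -0.11.

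Certain libraries were the highest or lowest of their group for many members. Summed over the 49 members, the level was 1214, 799, 836 and 1097 CPM in bigenic libraries 1 to 4 and 1498, 1226, 982 and 1181 CPM in control libraries 1 to 4. In the bigenic group library 1 was the highest for 30 members and library 4 for 11, and library 2 was the lowest for 25 and library 3 for 19. In the control group library 1 was the highest for 36 members and library 4 for 10, and library 3 was the lowest for 41. By summed level the bigenic order was 4, 1, 3 and 2 for H1 and 1, 4, 2 and 3 for H4, and the control order was 1, 4, 2 and 3 for H2B. These are unlike the order of all members. H4 members summed to 473, 248, 233 and 378 CPM in bigenic libraries and 653, 538, 391 and 518 CPM in control libraries, so that bigenic library 1 lay above control library 3. The H4 mean was 333 ± 114 CPM in bigenic libraries, against 525 ± 107 CPM in control libraries (SD, n = 4 each), a ratio of 0.634. The ratio of the means was 0.820 for H3, 0.875 for H2A, 0.952 for H2B and 0.976 for H1, and no type's sums separated the groups.

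**Figure D2:**
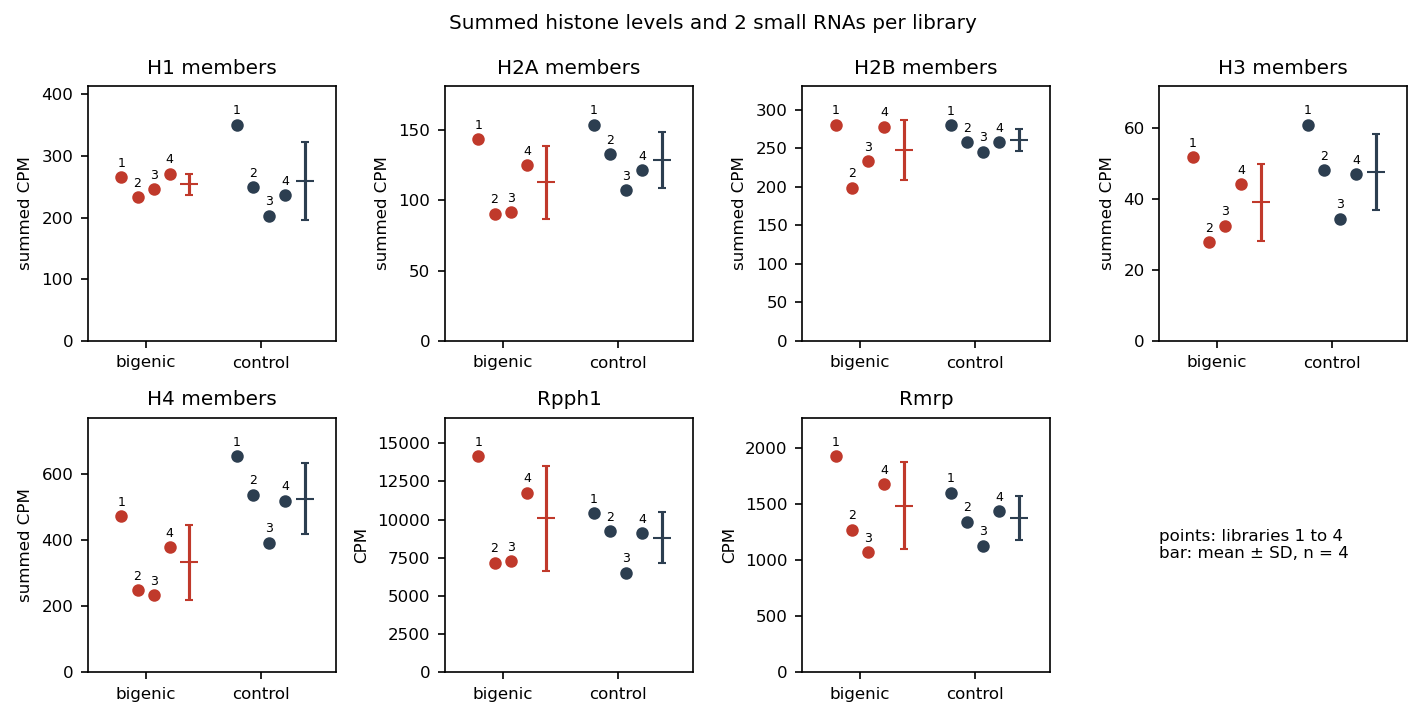
Summed CPM of the members of each histone type, and CPM of the small RNAs Rpph1 and Rmrp, in every library; points are labelled with the library number, and the bar gives mean ± SD, n = 4. Library 1 is the highest of its group for H2A, H2B, H3, H4, Rpph1 and Rmrp in both groups; the H4 mean is 333 CPM in bigenic libraries, against 525 CPM in control libraries.

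The plot of summed levels sets the members beside Rpph1, the RNA of ribonuclease P, and Rmrp, the RNA of ribonuclease MRP. Both are small RNAs without a poly(A) tail, and they were singled out after their values were seen. Rpph1 had 14136, 7184, 7270 and 11758 CPM in bigenic libraries and 10425, 9240, 6522 and 9105 CPM in control libraries. It ranked the libraries of each group in the order of the summed members: bigenic 1, 4, 3 and 2, and control 1, 2, 4 and 3. The highest library was 1.97 times the lowest in the bigenic and 1.60 times in the control group for Rpph1, against 2.03 and 1.67 times for summed H4. Neither RNA was called: the log2 fold change was 0.19 ± 0.23 for Rpph1 and 0.11 ± 0.17 for Rmrp (SE; adjusted p = 0.515 and 0.613), so the sign was opposite to that of H4. Scarna2, also chosen after its values were seen, ranked the libraries in the order of summed H4, bigenic 1, 4, 2 and 3 and control 1, 2, 4 and 3, with a highest library 1.98 times the lowest in the bigenic and 1.79 times in the control group. Rnu12, Snora74a and Scarna13 ordered them otherwise: the bigenic order was 2, 3, 4 and 1 for Rnu12 and 4, 3, 1 and 2 for Snora74a and for Scarna13.

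With log2 CPM of Rpph1 as a covariate, added after these values were seen, 31 members were lower and 3 higher, against 22.9% and 21.3% of all genes tested. All 19 members called lower without the covariate were among the 31. Rpph1 was picked because it ranks the libraries as the summed members do, so it takes up their spread within the groups by that choice, and the larger count is a description with no support drawn from it. For H4 members the median log2 fold change was -1.10 with the covariate. The part of library preparation or RNA recovery in the shared order was not tested. The labels themselves disagree on the library kit.

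**Figure D3:**
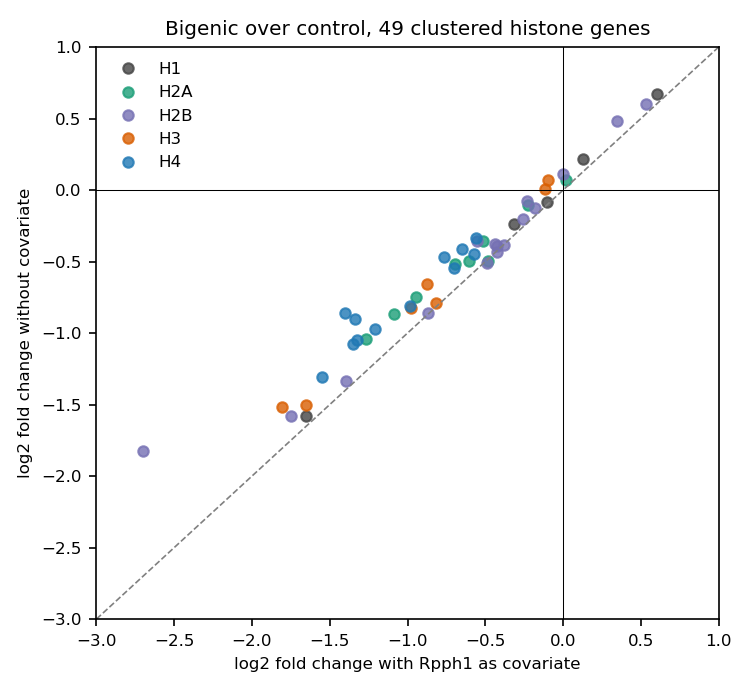
Log2 fold change of each member, bigenic over control, with log2 CPM of Rpph1 as a covariate (x axis) and without it (y axis), coloured by histone type; the dashed line marks equal values. H4 members lie left of the line, with a median of -1.10 with the covariate and -0.84 without it.

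The plot of both estimates shows that the covariate moved most members to lower values and left the 3 members called higher above 0. With Rmrp as the covariate 30 members were lower and 3 higher, against 23.9% and 22.2% of all genes. The library map shows the same members one by one: the H4 block is darkest in bigenic libraries 2 and 3, whereas Hist1h1d, Hist1h2bb, Hist1h2bn and Hist1h3i are low in all 4 bigenic libraries.

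**Figure D4:**
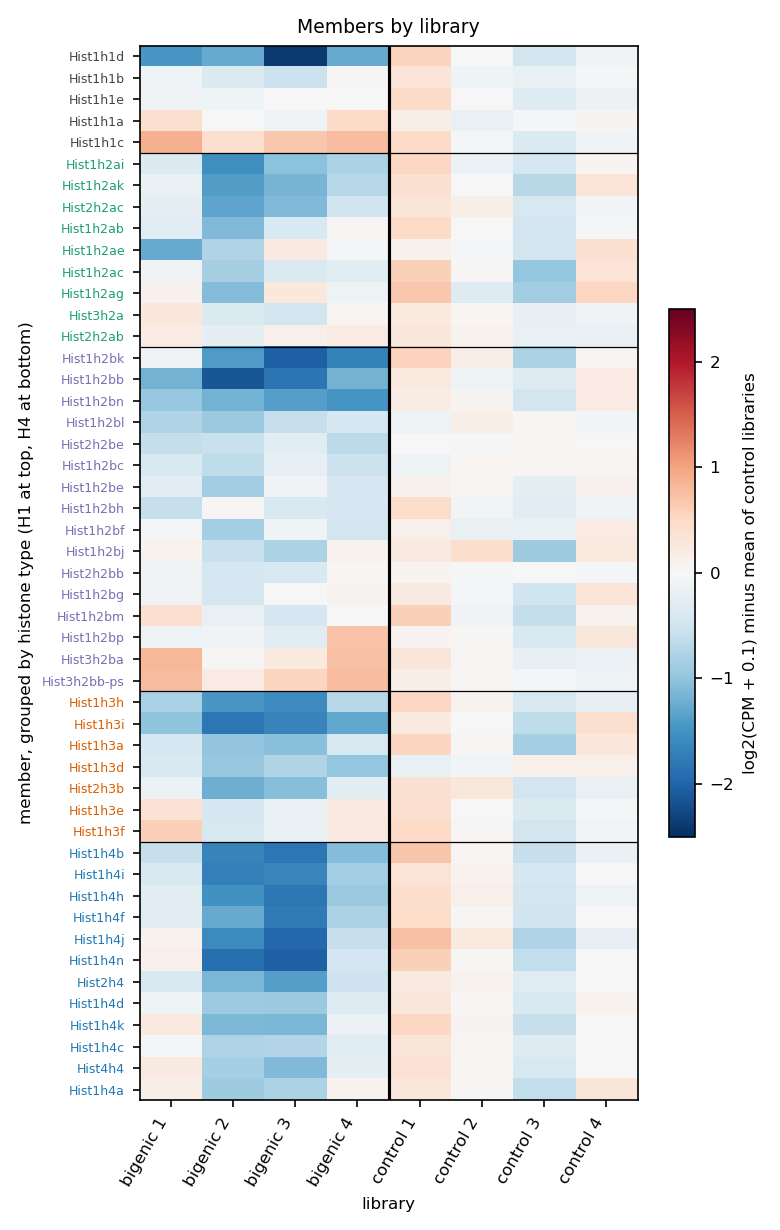
Log2(CPM + 0.1) of each member (one per line, grouped by type from H1 at the top to H4 at the bottom) in each library (columns, bigenic left of control), minus the mean of the 4 control libraries; blue is lower and red is higher. Hist1h1d is blue and Hist1h1c red in all 4 bigenic libraries, and control library 3 is paler or bluer than control library 1 in most lines.

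Many members are near-identical copies, and reads could have been split between them. Of the stretches of 75 coding bases in a member, a median of 63.5% occur in another annotated gene, with a median of 17.6% in H1 and 62.6% in H4. Genes whose exons overlap those of the member were left out of this search. The 12 H4 coding sequences, each of 309 bases without the stop codon, were 85.44% to 98.38% identical in pairs. Of the 31 members with more than 50% of stretches shared, 12 were lower, Hist1h3h among them, and 0 higher. Their median log2 fold change was -0.52, and of all genes tested 22.9% were lower and 21.4% higher. Of the other 18, 7 were lower and 3 higher, with a median of -0.22. For the 6 members with no shared stretch (Hist1h1a, Hist1h1b, Hist2h2bb, Hist2h2be, Hist2h4 and Hist4h4) the count was 2 lower and 0 higher, with a median of -0.33. Of these, Hist2h2bb overlaps exons of Gm42743 on its own strand and Gm20628 on the other, which the search left out. In addition, 12 members overlap an exon of a gene on the opposite strand, of which 4 were lower and 0 higher. On the same strand 5 members overlap an exon of another gene, with 0 lower and 0 higher. They include Hist1h1e, Hist2h2bb and Hist3h2a, the highest by FPKM among H1, H2B and H2A members. How reads in such overlaps were counted, and whether by strand, is not given in the sources used here.

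Of the 68 clustered histone rows, 19 did not meet the count rule. Of these, 9 are at 0 in every library, and for each of them every stretch of 75 coding bases also occurs in another gene. Just outside the rule, Hist1h3g had 1, 2, 2 and 3 counts in bigenic libraries and 9, 14, 6 and 20 counts in control libraries. Just inside it, Hist1h2ae had 3, 6, 14 and 12 counts in bigenic libraries and 14, 13, 8 and 19 counts in control libraries.

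The replacement variants, which are made outside S phase, held calls in both directions, and their number was 3 to 6 as 1 library was left out. Of 11 genes tested, 2 were higher and 2 lower, where 44.3% of all genes were called, with a median log2 fold change of -0.05. With Ttr as a covariate 1 of them was called. H3f3b, a gene for the replacement form of H3, had 691, 696, 989 and 802 CPM in bigenic libraries and 526, 497, 538 and 473 CPM in control libraries. The groups did not overlap (log2 fold change 0.64 ± 0.11, SE; adjusted p = 0.000802). H2afz, the gene for H2A.Z, was higher at 0.60 ± 0.15, whereas H2afv, a second gene for that variant, fell by 0.38 and H2afj by 0.47 (adjusted p = 0.00853, 0.00219 and 0.0222).

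Genes for histone gene transcription, 3′ end processing and decay were called in both directions, 4 higher and 3 lower of 24 tested, with a median of 0.06, where 44.3% of all genes were called. The number called was 11 with the replicate block and 11 on log2(FPKM + 1). Lsm10, a protein of the U7 particle that cuts histone pre-mRNA after the stem-loop, had 3.65, 3.16, 2.51 and 3.67 CPM in bigenic libraries and 7.98, 6.79, 7.07 and 7.10 CPM in control libraries. Its groups did not overlap (log2 fold change -1.15 ± 0.15, SE; adjusted p = 0.000141). Eri1, the exonuclease that trims the histone mRNA end, fell by 0.86 and the cap-binding subunit Ncbp2 by 0.94 (adjusted p = 4.96e-05 and 3.46e-05). Pou2f1, which binds the octamer of H2B promoters, was higher at 0.53 ± 0.08 (SE; adjusted p = 0.000264). Slbp and Npat, the histone locus coactivator, are named after their values were seen: neither was called, at 0.10 ± 0.12 and 0.33 ± 0.14 (SE; adjusted p = 0.521 and 0.0649).

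Among histone chaperones and nucleosome assembly factors 8 of 21 were higher and 2 lower, with a median log2 fold change of 0.20, against 21.4% higher and 22.9% lower of all genes tested. Of the 21 genes 4 were called without control libraries 2 and 3, and 3 with Ttr as a covariate. Chaf1b, a subunit of the assembly factor CAF-1 that loads H3 and H4 behind the replication fork, had 2.20, 1.41, 3.08 and 2.86 CPM in bigenic libraries and 0.269, 0.359, 0.637 and 0.399 CPM in control libraries. The groups did not overlap (log2 fold change 2.51 ± 0.32, SE; adjusted p = 0.000143). Chaf1a, another CAF-1 subunit, was higher at 0.70 ± 0.12, Hjurp, a centromeric chaperone, at 0.71 ± 0.11 and Hira, a chaperone of replacement H3, at 0.49 ± 0.08 (SE; adjusted p = 0.000846, 0.000478 and 0.000439).

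Genes of S phase and cell division numbered 7 lower and 2 higher of 20 tested, with a median of -0.18, where 22.9% of all genes were lower and 21.4% higher. The number called was 3 without control libraries 2 and 3, and 5 with Ttr as a covariate. The division marker Mki67 was near 0 in this tissue, at 0.0571, 0.189, 0.150 and 0.167 CPM in bigenic libraries and 0.671, 0.795, 1.41 and 1.17 CPM in control libraries. All bigenic values lay below all control values (log2 fold change -2.81 ± 0.38, SE; adjusted p = 0.000211). Top2a, a topoisomerase of dividing cells, fell by 2.13 and the replicative helicase subunit Mcm6 by 0.61 (adjusted p = 0.00181 and 0.00267). Ccna2, a cyclin of S phase, was higher at 1.48 ± 0.25 (SE; adjusted p = 0.000766). In the list of small RNAs without a poly(A) tail 2 of 9 genes tested were higher and 0 lower: Rnu12 at 0.67 ± 0.09 and Snora74a at 0.41 ± 0.10 (SE; adjusted p = 0.000183 and 0.00585), while Scarna13 at 0.22 and Vaultrc5 at -0.26 were not called (adjusted p = 0.076 and 0.252).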

How the data were processed

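Whole-cerebellum RNA of 4 bigenic and 4 control mice was analysed from 2 tables the authors deposited. The first holds whole-number read counts per gene symbol, not normalised. The second holds FPKM, which per the deposited values divides each count by a gene length and a column total. Per the submitters' processing notes STAR, HTSeq and mm10 were used, with versions, annotation and strand setting not given in the sources used here. Per the labels, the design text names mirVana extraction and Nugen libraries, whereas the sample protocols name RNeasy extraction and stranded TruSeq libraries with RiboZero.

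Counts were tested in R 4.3.3 with edgeR 4.0.16: filterByExpr on group, TMM, a robust quasi-likelihood fit and Benjamini-Hochberg adjustment over 15186 genes, with calls at an adjusted p under 0.05. The procedure was tested on simulated data. Alternatives were DESeq2 1.42.0, limma 3.58.1 on log2(FPKM + 1) and log2(FPKM + 0.1), other scalings and filters, a replicate block, left-out libraries, and Ttr, Rpph1 or Rmrp as covariates, the last 2 added after the data were seen. Positions and transcripts are from GENCODE M21, promoters from RefSeq (GRCm38.p6). Named genes are the members called, the 2 of each type with the highest mean FPKM and up to 4 genes per list with the smallest p; others are marked as chosen after their values were seen. The members and lists were chosen with earlier results of these data known.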

Additional observations from a re-analysis of the deposited data

Results flagged for a closer look

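In 2 of 150 groups of 4 values examined, 1 library stood apart from the other 3 by more than a 95% gap criterion allows; chance gives about 5%. Hist1h2bp, an H2B gene that was not called, was at 0.640 CPM in bigenic library 4, against 0.269 to 0.325 CPM in the other bigenic libraries. H2afz, the replacement variant called higher in bigenic tissue, was at 19.881 CPM in bigenic library 2, against 32.9 to 33.7 CPM in the other bigenic libraries and 17.5 to 21.3 CPM in control libraries.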

How the results depend on the processing

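The median log2 fold change of the members was below 0 under all 22 alternatives, between -0.71 and -0.36. Leaving out 1 library gave 12 to 23 members lower (12 without bigenic library 2) and 2 to 3 higher, 5281 to 7411 genes called in all, and 3 to 6 replacement variants, 7 to 10 transcription and 3′ end genes, 8 to 14 chaperones, 8 to 11 S phase genes and 2 to 3 small RNAs called. By library left out, the members called lower numbered 23, 12, 14 and 16 for bigenic 1 to 4 and 13, 13, 23 and 16 for control 1 to 4. Deviations from the group mean correlated at 0.329, 0.024, 0.166 and 0.063 between same-numbered libraries. Between differently numbered libraries the correlation ran from -0.278 to 0.1. Whether the replicate numbers pair the libraries was not tested. With a replicate block 26 members were lower and 3 higher, and 11 transcription and 3′ end genes were called, against 7 without the block. That list also had 11 called on log2(FPKM + 1) and on log2(FPKM + 0.1). Without control libraries 2 and 3, 3394 genes were called in all, 1 member was higher, and 4 chaperones, 3 S phase genes and 1 small RNA were called. With the Ttr covariate, 2935 genes were called in all, 5 members were lower and 1 higher, and 1 replacement variant, 3 chaperones, 5 S phase genes and 1 small RNA were called. With Rpph1 as a covariate 31 members were lower, and with Rmrp 30. DESeq2's test called 21 lower and 3 higher, and the other scalings 19 to 23 lower and 2 to 3 higher. Without a filter 16 were lower. The causes were not tested.

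Values changed sign in 20 of 1078 refits of single named genes, with adjusted p of at least 0.3804. Hist1h3e, at 0.01, was at -0.07435 with library size alone, -0.05128 with upper-quartile factors, -0.01233 without a filter, -0.08009 on log2(FPKM + 1) with and without the filter, -0.08239 on log2(FPKM + 0.1), -0.1692 without control libraries 2 and 3, -0.03669 with Ttr, -0.1194 with Rpph1 and -0.07564 with Rmrp; leaving out 1 library gave -0.1189 without bigenic 1, -0.0667 without bigenic 4, and -0.005563, -0.1004 and -0.01816 without control 2, 3 and 4. Hist2h2ab was at -0.01247 scaled by library size, -0.01069 for log2(FPKM + 1) and -0.01102 for log2(FPKM + 0.1). Hist1h1e ranged from -0.1856 to 0.09995 as 1 library was left out; it was above 0 without control 1.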

Other observations

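Of the 19 clustered histone rows under the count rule, 10 had a few counts and were not compared between groups. Hist1h3b, an H3 gene, had 2, 3, 1 and 2 counts in bigenic libraries and 7, 7, 17 and 9 counts in control libraries. Hist1h2an, an H2A gene, had 3, 1, 2 and 1 counts in bigenic libraries and 8, 2, 0 and 12 counts in control libraries. The testis-type genes were at or near 0 in both groups: Hist1h1t had 0 to 3 counts in bigenic and 1 to 2 counts in control libraries, and Hist1h2ba and Hist1h2aa had at most 1 count in any library.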
